A study of Mus musculus with 24 samples.

Results

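Wild-type (WT) mouse embryonic fibroblasts (MEFs) and MEFs lacking *Tfeb* and *Tfe3* (*tfeb tfe3* double knockout, DKO) were compared while both were given only the solvent DMSO. The comparison took the 4 DKO and the 4 WT libraries labelled DMSO, 8 of the 24 libraries of the series, chosen by their labels and not by any measured value. The other 16 libraries were the same 2 lines given MK-8722, an activator of the kinase AMPK, or torin1, an inhibitor of the kinase MTOR, with 4 libraries for each line and drug. Cultured cells of each line were sequenced as bulk, stranded mRNA, and the replicates were cultures of that line at different passages. The WT DMSO cultures, replicates 1 to 4, were at passages 7, 11, 8 and 9, and the DKO DMSO cultures at passages 11, 8, 10 and 9. Each genotype was 1 line, so the loss of TFEB and TFE3 and any other difference between the 2 lines cannot be told apart. The p-values measure the spread between these cultures and not between independently derived lines.

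TFEB and TFE3 are transcription factors of the MiT/TFE family, with MITF and TFEC as the other members. In fed cells the kinase complex MTORC1 phosphorylates them at the lysosome and holds them in the cytosol, and on starvation or MTOR inhibition they enter the nucleus and bind E-box sequences near genes of the lysosome and of autophagy, the pathway that delivers cell contents to lysosomes. MEFs are connective tissue cells grown from whole mid-gestation embryos. A MEF line keeps a record of the body regions its founder cells came from, above all in its *Hox* genes.

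The DMSO libraries held between 24668870 and 33332507 counts, with RNA integrity numbers of 9.7 to 9.9 in 1 labelled batch. A gene was tested when it passed a filter on low counts, which 15401 genes did. A gene was called when its fold was at least 1.2 and edgeR, with Benjamini-Hochberg adjustment of the quasi-likelihood p, put it under 0.05. Levels are given as counts per 1000000 counts of a library (CPM, scaled between libraries by the TMM method) as mean ± SD over 4 libraries, and differences as log2 DKO over WT ± standard error. One library stood apart: WT replicate 2, at passage 11, gave a chi-square per degree of freedom of 25.8 to 38.0 against the other WT libraries, where those 3 gave 4.53 to 6.69 among themselves and the DKO pairs 4.36 to 14.1. Where leaving it out moved the fold of a gene named here by over 1.5 times, the value without it is given.

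The targeted genes were read first. *Tfeb* (ENSMUSG00000023990, chr17:47737030-47792419, plus strand, GRCm38) gave 23.5, 22.4, 25 and 20.9 CPM in WT replicates 1 to 4 and 1.95, 2.22, 2.19 and 2.65 CPM in the DKO. It was lower in every DKO library, with a log2 difference of -3.35 ± 0.10 and an adjusted p of 4.09e-18. *Tfe3* (ENSMUSG00000000134, chrX:7762560-7775202, plus strand) gave 119, 122, 119 and 120.5 CPM in WT and 126, 123, 121 and 123 CPM in the DKO, a difference of 0.04 ± 0.03 (adjusted p = 0.279). The *Tfe3* transcript level therefore did not mark the knockout. The counts cover whole genes and do not show which part of *Tfe3* was removed, so this neither checks nor contradicts the label. Its annotated transcripts went both ways. The most abundant stood at 14.2 ± 0.817 TPM (transcript level per length) in WT and 12.5 ± 0.52 TPM in the DKO, and another at 9.53 ± 1.4 and 12 ± 0.646 TPM. *Mitf* (chr6:97807052-98021349, plus strand), the melanocyte member of the family, rose from 9.96, 8.76, 11.2 and 9.34 CPM in WT to 35.8, 27.3, 31.5 and 27.2 CPM in the DKO, 1.64 ± 0.13 on the log2 scale, with no overlap of the groups. It was also higher in the DKO under torin1 (2.25) and MK-8722 (1.95). *Tfec* had no count in any of the 8 libraries. The 40 expressed genes around *Tfeb* had a median difference of -0.03 and the 41 around *Mitf* 0.04, whereas the 43 around *Tfe3* had 0.47. Against the median of its neighbours, *Tfe3* stood at -0.43 on the log2 scale.

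Nearly as many genes were called as not. Of the 15401 tested genes, 3621 (23.5%) were higher and 3796 (24.6%) were lower in the DKO, together 48.2%, so a gene list with about that share called does not stand out from all genes. For 8748 genes the 4 DKO and the 4 WT libraries did not overlap. Most calls were small: 4944 were under 2-fold, and the median size among called genes was 0.64 on the log2 scale. The large differences leaned towards loss, with 1544 genes at least 2-fold lower against 929 higher, and 546 at least 8-fold lower against 173 higher. In 61 tested genes the 4 DKO libraries held no count while WT averaged at least 1 CPM, and the reverse held for 2. Under torin1 3692 genes (24%) were higher and 4283 (27.8%) lower, 51.8% in all, and under MK-8722 3588 (23.3%) were higher and 3908 (25.4%) lower, 48.7% in all. Scaled by library size alone, torin1 gave 2629 higher and 5623 lower. These treated libraries are of the same 2 lines at the same passages as the DMSO libraries, so they are not independent repeats. Of the genes higher under DMSO, 2495 (68.9%) were also higher under both drugs, and of the lower genes 2754 (72.6%) were also lower under both. A drug changed the size of the DKO difference (interaction test, adjusted p under 0.05) for 743 of the higher genes under torin1 and 388 under MK-8722, and for 529 and 213 of the lower genes. Cultures of the same line and passage recur under each treatment. With the passage of each line as a block, a fit added after seeing the data, these counts were 1292 and 807 and 924 and 478, and each of the genes found without the block was among them. Over all 15401 tested genes the counts were 2321 under torin1 and 1051 under MK-8722 without the block, and 4088 and 2302 with it. The DMSO difference that chose the higher and lower genes enters the same interaction term, so part of a change can follow from that choice.

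Several genes well expressed in WT were all but absent in the DKO. *Cd34*, a sialomucin of blood and vessel progenitors that fibroblasts also carry (chr1:194938819-194961279, plus strand), gave 358, 391, 373 and 371 CPM in WT and 0.377, 0.213, 0.461 and 0.401 CPM in the DKO (-9.97 ± 0.17). The DKO values were near 0 in every library, and no WT value came close. *Eif4g3*, a scaffold of the cap-binding complex in translation, stood at 97.4, 70.4, 86.4 and 78.6 CPM in WT and 0.514, 0.811, 0.461 and 0.481 CPM in the DKO (-7.20 ± 0.15). *Nid1*, a linker of the basement membrane, fell from 161 ± 8.36 to 1.49 ± 0.256 CPM (-6.74 ± 0.09). *Ank2*, which anchors membrane proteins to spectrin, fell from 37.8 ± 12.7 to 0.425 ± 0.133 CPM, and *Igf2bp3*, a fetal mRNA-binding protein, from 37.8 ± 2.29 to 0.427 ± 0.113 CPM. *Tdrkh*, a Tudor-domain protein of the piRNA pathway (-6.31), *Slco2a1*, the prostaglandin transporter (-6.16), and *Loxl2*, a collagen-crosslinking oxidase (-5.95), fell too, as did *Vcan* and *Col5a3*. Genes with no DKO count at all included *Cyba*, the p22-phox subunit of NADPH oxidases, at 48.2 ± 2.51 CPM in WT. With 3 counts per library taken as the floor it was at least 414-fold lower in the DKO. On the same floor the palmitoyltransferase gene *Zdhhc15* was at least 87.2-fold and the glypican gene *Gpc6* at least 84.6-fold lower. In the other direction *Casp1*, the inflammasome protease, had no WT count and 1.04 ± 0.192 CPM in the DKO, at least 10.5-fold higher. In bulk RNA, fewer cells expressing a gene and less of its RNA per cell cannot be told apart.

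**Figure D1:**
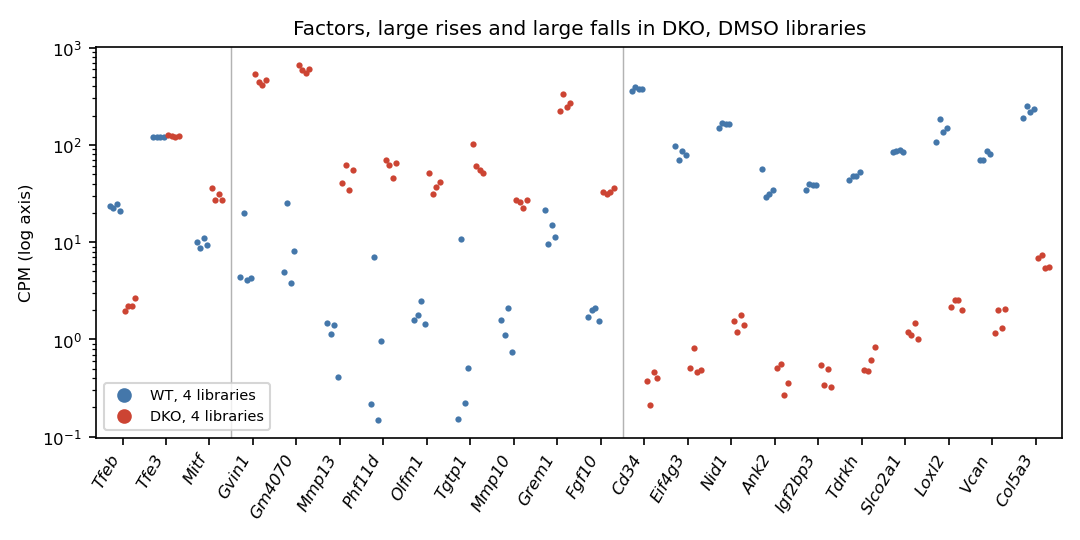
CPM on a log axis of *Tfeb*, *Tfe3*, *Mitf* and genes with large differences among those of middle or high level, 1 point per DMSO library, WT and DKO side by side. The 4 WT and 4 DKO points lie apart for each gene drawn but *Tfe3*, for *Cd34* near 373 against 0.363 CPM and for *Grem1* near 14.3 against 266 CPM.

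Large rises were found in a gene for an antagonist of bone morphogenetic proteins (BMPs), in genes of proteases that cut the matrix and in interferon-inducible genes. *Grem1*, a secreted BMP antagonist (chr2:113746164-113758646, minus strand), gave 21.6, 9.52, 14.9 and 11.4 CPM in WT and 221, 329.8, 245 and 267 CPM in the DKO (4.21 ± 0.27). *Mmp13* and *Mmp10*, which cut matrix proteins, rose from 1.11 ± 0.49 to 48.3 ± 12.7 CPM (5.43) and from 1.38 ± 0.58 to 25.6 ± 2.23 CPM (4.22). *Fgf10*, a growth factor of limb and lung mesenchyme, rose by 4.17 and *Olfm1*, a secreted glycoprotein first known from neurons, by 4.48. *Gvin1* and *Gm4070*, genes of very large interferon-inducible GTPases, stood at 465 ± 54.1 and 600.5 ± 49.9 CPM in the DKO. They are near-identical copies on chromosome 7, together with *Gm8995* (5.99), so how the reads were split among them is uncertain. In WT *Gvin1* gave 4.43, 19.8, 4.07 and 4.33 CPM, the high value being replicate 2, and without that library the differences of *Gvin1*, *Gm4070* and *Gm8995* were 6.76, 6.73 and 6.60. *Tgtp1* (4.46) and *Phf11d* (4.79), interferon-inducible too, had the same high WT library, and stood at 7.83 and 7.10 without it.

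The differences largest in CPM lay in highly expressed genes of several kinds. *Thbs1*, thrombospondin, an activator of latent TGF-beta, rose from 387, 697, 409.9 and 392 CPM to 3529, 3342, 2961 and 3300.3 CPM (2.80 ± 0.23). *Actb*, cytoplasmic actin, gave 5832, 6197, 6219.8 and 6069.9 CPM in WT and 9352, 8826, 8907 and 9441 CPM in the DKO (0.59 ± 0.05). *Il1rl1*, the receptor of interleukin 33, rose from 129 ± 19.2 to 1502 ± 133 CPM (3.54 ± 0.13). *Tpm1* and *Col5a2* rose by 1.2 and 1.36. On the falling side, *Fn1*, fibronectin, went from 2056 ± 113 to 1439 ± 235 CPM (-0.52 ± 0.12) and *Flnc*, filamin C, from 1011 ± 49.3 to 412 ± 35 CPM (-1.30 ± 0.05). *Lgals1*, a galactose-binding lectin (-0.41), *Pabpc1*, the poly(A)-binding protein (-0.46), and the ribosomal protein gene *Rpl8* (-0.48) fell less than 1.5-fold.

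The 20 listed fibroblast markers summed to 8714 to 12410 CPM in WT and 8116 to 9270 CPM in the DKO, with differences among them. *Vim* was at 2389 ± 301 CPM in WT and 2355 ± 240.4 CPM in the DKO. Of 18 tested fibroblast markers 8 were higher, 5 lower and 5 not called, 72.2% called against 48.2% of all tested genes. *Pdgfra* and *Pdgfrb*, receptors of platelet-derived growth factor, rose by 2.3 and 0.94. *Postn*, periostin, rose by 2.38, with WT replicate 2 at 0.0903 CPM. *Thy1*, a surface marker of a fibroblast subset, had 3.12 ± 0.54 CPM in WT and no DKO count. *Col1a1* and *Col3a1* were not called (-0.30 and -0.49). *Lum* had no count in either line, and *Dcn* was at 0.212 ± 0.141 and 0.176 ± 0.126 CPM, so these defining fibroblast markers were at or near 0 in both. Markers of other cell types were mostly low or at 0. The epithelial list had 6 of 13 genes tested, 3 higher and 3 lower, 100% called against 48.2% of all tested genes. Its summed levels were 31.1 to 33.9 CPM in WT and 55.2 to 72.3 CPM in the DKO. Most of that sum was *Krt19* (27.5 ± 1.82 and 56.1 ± 7.46 CPM), while *Epcam* (0.316 ± 0.182 and 0.0458 ± 0.0536 CPM) and *Cdh1* (0.677 ± 0.0747 and 0.115 ± 0.0508 CPM) were near 0 and *Cldn7* was at 0. *Krt7* and *Krt8* rose by 2.58 and 0.81, and *Krt18* fell by 1.93 from 0.387 ± 0.217 CPM. The endothelial sum was 14.4 to 17.4 CPM in WT and 1.75 to 2.09 CPM in the DKO, carried by *Flt1*, a VEGF receptor that fell from 15.5 ± 1.41 to 1.43 ± 0.259 CPM. *Cldn5* and *Emcn* were at 0, and *Kdr* (-1.37) and *Vwf* (-0.49) were not called.

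Among blood markers *Adgre1*, *Cd52* and *Tyrobp* were at 0 in all 8 libraries, *Csf1r* was at 0.334 ± 0.0936 and 0.327 ± 0.0777 CPM, and *Cd14*, which fibroblasts also express, fell from 9.9 ± 0.637 to 6.91 ± 0.77 CPM. The summed list was 10.2 to 11.3 CPM in WT and 6.19 to 7.98 CPM in the DKO. Of the neural and glial list *Sox10* and *Dcx* were at 0, *Nes* (-0.79) and *Tubb3* (-0.95) and *Map2* (-0.42) fell, and *Sox2* was 2.08 ± 0.177 and 3.05 ± 0.445 CPM (0.55, a call that 8 alternatives lost). The summed list was 481 to 522 CPM in WT and 281 to 313 CPM in the DKO, nearly all *Nes*. Of the striated muscle list *Des* fell by 2.35 and *Tnnt2* rose by 1.3, with *Actn2*, *Myf5* and *Myog* at 0 (summed 12.3 to 16.3 CPM in WT and 25.9 to 28.6 CPM in the DKO). The adipocyte list summed to 5.42 to 8.45 CPM in WT and 5.48 to 8.45 CPM in the DKO, with *Cd36* at 0. *Pparg*, the adipogenic receptor, fell from 2.98 ± 0.438 to 1.12 ± 0.381 CPM, *Fabp4* rose by 1.48 and *Cebpa* by 0.43, a call that 14 alternatives lost. Of 9 tested cartilage and bone markers 3 were higher and 4 lower, 77.8% called against 48.2% of all tested genes. Their sums were 333 to 384 CPM in WT and 369.6 to 574 CPM in the DKO. *Alpl* (-4.68), *Col2a1* (-4.39), *Acan* (-1.84) and *Col11a1* (-1.05) fell, *Runx2*, the osteoblast regulator, rose by 0.51, and *Spp1* (0.40) and *Col10a1* (0.67) had calls that 7 and 4 alternatives lost. *Dmp1* (-1.16) and *Comp* (-0.87) were not called. The part of these other cell types in the results was not tested.

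Most *Hox* genes, which give body regions their identity, differed between the lines. Of 31 tested *Hox* genes 25 were lower, 4 were higher and 2 were not called, a share of 93.5% against the 48.2% of all tested genes, with a median of -3.58 on the log2 scale. With the 6 genes that had no DKO count set at their bound the median was -1.93, and with at least 10 counts required in every library, which drops genes absent from 1 line, 10 were lower and the median was -1.35. *Hox* genes lie in 4 clusters in which genes at the 13 end are active towards the tail and in the outer limb. *Hoxb9* gave 42.1, 50.4, 48.4 and 49.9 CPM in WT and 2.16, 2.01, 1.65 and 1.44 CPM in the DKO (-4.71 ± 0.17), and *Hoxd9* 21.1 ± 2.25 and 1.46 ± 0.29 CPM (-3.85). *Hoxb13* and *Hoxa5* averaged 5.2 ± 0.721 and 4.35 ± 0.594 CPM in WT and had no DKO count, at least 44.6-fold and 37.4-fold lower. The 4 genes that rose all lay at the posterior end of the *Hoxa* and *Hoxd* clusters. *Hoxd13* gave 9.53, 11.3, 10.004 and 10.9 CPM in WT and 134, 117, 127 and 134 CPM in the DKO (3.61 ± 0.07). *Hoxa13* rose from 1.29 ± 0.121 to 15.3 ± 1.44 CPM (3.57 ± 0.10), *Hoxa11* by 3.44 and *Hoxd11* by 2.42. *Hoxa9* (-0.16) and *Hoxa10* (-0.12), which lie next to *Hoxa11* on its anterior side, were not called. No tested *Hoxb* or *Hoxc* gene was higher.

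**Figure D2:**
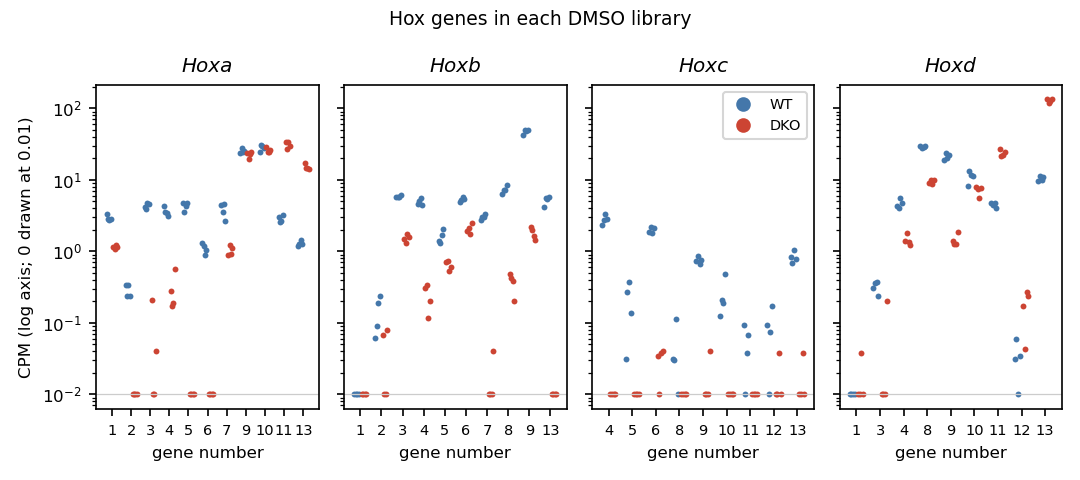
CPM on a log axis of 39 *Hox* genes by cluster, tested or not, with each point 1 DMSO library of WT or DKO and values of 0 drawn at the foot of the axis. Among the tested genes of the *Hoxa* and *Hoxd* panels the DKO points lie under the WT points at the anterior end and above them at positions 11 and 13. For the tested *Hoxb* and *Hoxc* genes they lie under them throughout. Genes too low to test, such as *Hoxb2*, *Hoxc12* and *Hoxd12*, lie near 0 in both lines and do not all follow this.

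Other regulators of body position went both ways. Of 56 tested 26 were higher, 21 lower and 9 not called, 83.9% called against 48.2% of all tested genes. *Tbx5*, the T-box factor of the forelimb, gave 13.8, 18, 16.2 and 16.3 CPM in WT and no DKO count, whereas *Tbx4* and *Pitx1*, the factors of the hindlimb, rose from 1.14, 1.05, 1.23 and 0.988 to 14.6, 17.6, 13.5 and 15.3 CPM (3.79 ± 0.12) and by 2.82. *Hand2*, of the posterior limb bud, the heart and the branchial arches, averaged 37.4 ± 7.53 CPM in WT and had 1 count in the 4 DKO libraries together. *Tbx3*, of limb margins, went from 38.6 ± 1.67 to 0.056 ± 0.0313 CPM, and *Sox11*, of embryonic progenitors, from 39.8 ± 2.51 to 0.0403 ± 0.0328 CPM. *Lhx9* (3.82 ± 0.10), *Irx2* (3.78), *Msx1* (3.53), *Gata4* (3.14) and *Lmx1b*, of the dorsal limb (3.12), rose. *Prrx1*, a general marker of limb mesenchyme, was present in both and rose by 1.43, and *Twist2* was not called (-0.11). Imprinted genes, expressed from 1 parental copy, were mostly lower: 16 of 25 tested fell and 2 rose, with a median of -1.22. The lower were 64.0% against 24.6% of all tested genes, and 72.0% were called against 48.2%. A filter of at least 10 counts in every library, which drops genes absent from 1 line, left 8 lower and 1 higher with a median of -0.40. *Mest* and *Ndn* averaged 2.16 ± 0.275 and 2.0 ± 0.333 CPM in WT with no DKO count, and *Grb10*, a brake on growth factor receptors, fell from 87 ± 16 to 5.1 ± 3.48 CPM. *Peg10* (-4.05) and *Slc38a4* (-2.99) fell as well, *Plagl1* and *Asb4* rose by 0.65 and 1.24, and *Gnas* was not called (0.13). *H19*, *Igf2* and *Meg3* were too low to test.

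Both lines carried Y-linked transcripts and lacked *Xist*, the RNA of the inactive X. *Xist* averaged 0.0262 ± 0.0353 CPM in WT and 0.0378 ± 0.0283 CPM in the DKO. *Ddx3y* gave 20.6, 19.5, 18.9 and 19.2 CPM in WT and 54.1, 56, 52 and 50.6 CPM in the DKO (1.44 ± 0.06), and *Eif2s3y* (1.22), *Uty* (1.09) and *Kdm5d* (0.99) rose as well. *Sry* and *Tsix* had no count in any DMSO library, and *Usp9y*, *Zfy1* and *Zfy2* stayed under 0.01 CPM on average, so no fold is given for them. The X chromosome was also higher as a whole. Of its 297 expressed genes (a mean of at least 3 on the log2 CPM scale) 90.2% were above 0, and their median difference was 0.51, or 1.42-fold. The median over the X-linked genes lay between 0.488 and 0.516 in the 4 DKO libraries and between -0.0167 and 0.0202 in the WT libraries, each set against the WT mean.

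Whole chromosomes and long chromosome parts shifted together. The median differences were 0.35 on chromosome 1, 0.34 on chromosome 9, 0.24 on chromosome 7, 0.21 on chromosome 10 and 0.20 on chromosome 16. They were -0.33 on chromosome 15, -0.29 on chromosome 19 and -0.16 on chromosome 3, while chromosomes 2, 12 and 17 had 0.06, 0.01 and -0.03. The torin1 and MK-8722 libraries gave nearly the same values, 0.36 and 0.35 for chromosome 1 and -0.32 and -0.36 for chromosome 15. On chromosome 15, 54.8% of the tested genes were called lower and 7.79% higher, and on chromosome 1, 48.8% were called higher and 12.8% lower, against 24.6% lower and 23.5% higher of all tested genes. When the expressed genes were cut along each chromosome into 240 groups of about 40 neighbours, 194 groups had all 4 DKO libraries beyond all 4 WT libraries. The group medians ran from -0.47 to 0.60, and within WT no library's group median left the range from -0.0655 to 0.058. Each library was set against the WT mean, which holds the WT values near 0. A small median was enough to pass, such as -0.07 from *G2e3* to *Dnaaf2* on chromosome 12. Over all tested genes 8748 of 15401 already had no overlap. Groups of genes drawn without regard to position were not compared, so the 194 groups alone do not show regional shifts.

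**Figure D3:**
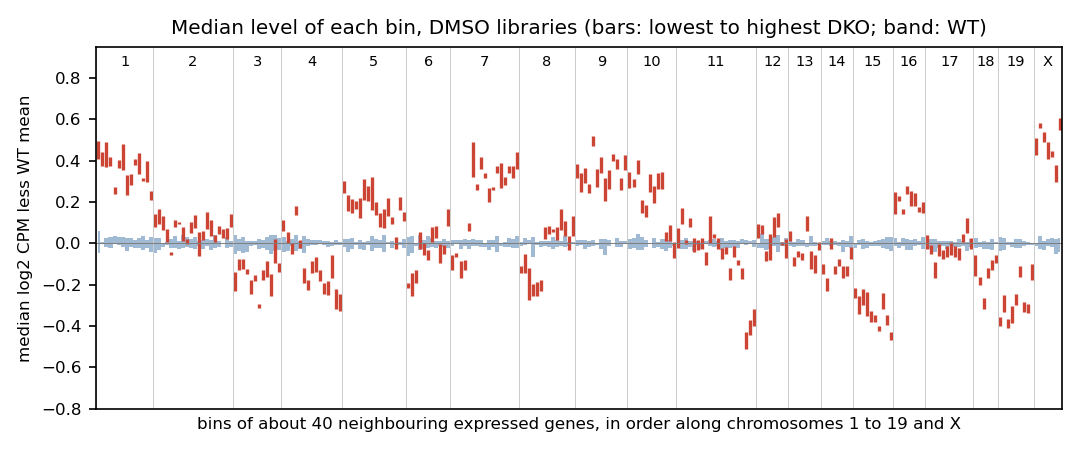
Median log2 CPM less the WT mean, under DMSO, of groups of about 40 neighbouring expressed genes in order along each chromosome. Bars run from the lowest to the highest DKO library, and the band covers the WT libraries. The DKO bars of chromosomes 1, 9 and X lie above 0, those of chromosomes 15 and 19 below, and several chromosomes step from one level to another partway.

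Some chromosomes held a step. On chromosome 11 the 680 expressed genes from *Sfi1* to *Cog1* had a median of -0.02 and the 119 from *D11Wsu47e* to *Metrnl* -0.40, with 120 of 162 tested genes called lower in the second part and 2 higher. The called gene with the largest difference was *Hoxb9* in the first part and *Rnf157*, a ubiquitin ligase gene (-2.05), in the second. On chromosome 7 the first 205 genes, *Gm7353* to *Fxyd5*, had -0.06 and the remaining 486, *Gramd1a* to *Tpcn2*, 0.33. The largest called members were *Pvr*, the poliovirus receptor homologue (1.17), and *Gm8995*. On chromosome 10 the medians were 0.29 from *Mthfd1l* to *Cep83* and 0.02 from *Socs2* to *Itga7*, led by *Ank3*, an ankyrin (-4.65), and *B4galnt1*, a ganglioside synthase (2.62). On chromosome 8 they were -0.17 from *Insr* to *Slc35e1* and 0.07 from *Med26* onwards, led by *Isyna1*, of inositol synthesis (2.94), and *Sall1*, a zinc finger factor of kidney and limb (3.89). On chromosome 4 they were 0.02 from *Tmem68* to *Rps6* and -0.17 from *Mllt3* to *Noc2l*, led by *Lurap1l* (1.8) and *Smpdl3b* (-1.99). These steps were placed after the values were seen. A shift of this kind moves many calls at a threshold of 1.2-fold. With each gene's own group median taken away, 2212 of 3578 higher genes (61.8%) and 2985 of 3737 lower genes (79.9%) in the groups were still past 1.2-fold. Only the fold was checked again, and the adjusted p stayed that of the unadjusted difference. The other counts given with group or neighbour medians taken away also used that adjusted p. They took every tested gene under 0.05 whose fold less the median was past 1.2 in either direction, called before or not. The count of a list can therefore rise. Over all 15401 tested genes they came to 2409 higher and 3227 lower. DNA was not measured, and how far chromosome content sets these values was not tested.

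Genes of the lysosome were not lower as a group under DMSO. The 93 tested genes of the vacuolar ATPase, the lysosomal hydrolases and the lysosomal membrane held 32 higher and 19 lower, with a median of 0.13, against 23.5% and 24.6% of all tested genes. In the torin1 cultures 14 of the 93 were higher and 57 lower in the DKO (median -0.46). Under MK-8722 15 were higher and 53 lower (median -0.37). Of all tested genes 24% were higher and 27.8% lower under torin1, and 23.3% and 25.4% under MK-8722. Of 18 tested subunits of the vacuolar ATPase, the proton pump that acidifies the lysosome, 5 were higher under DMSO, 1 was lower and 12 were not called. The share called was 33.3%, under the 48.2% of all tested genes. *Atp6ap2* gave 28.5, 29.8, 29.1 and 31.2 CPM in WT and 75.3, 81.3, 81.1 and 76.8 CPM in the DKO (1.41 ± 0.06), and *Atp6ap1* rose from 150.3 ± 0.969 to 303 ± 13.3 CPM (1.01 ± 0.04). Both accessory subunits are X-linked, and both stayed past 1.2-fold with the group median taken away. How far the chromosome sets their values was not tested. *Atp6v1h* rose by 0.88, *Atp6v0e2* fell from 16.2 ± 1.43 to 5.34 ± 0.718 CPM, and the catalytic subunit *Atp6v1a* was not called (-0.08).

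The hydrolases went both ways. Of 46 tested 16 (34.8%) were higher and 12 (26.1%) lower, against 23.5% and 24.6% of all tested genes. *Ctsc*, cathepsin C, which activates granule proteases, gave 19, 20.1, 16.3 and 18.9 CPM in WT and no DKO count, at least 159-fold lower. *Ctso* fell from 4.54 ± 1.18 to 0.938 ± 0.143 CPM, and *Gaa*, acid alpha-glucosidase, from 137 ± 2.14 to 88.2 ± 5.23 CPM (-0.64). *Idua* (1.38) and *Manba* (1.31), which cut glycosaminoglycans and mannosides, rose, as did the cathepsins *Ctsd* (0.52) and *Ctsl* (0.61) and *Gla*, alpha-galactosidase A (0.92). *Ctsb* was not called (0.14). Of 29 membrane proteins 11 were higher and 6 lower, 58.6% called against 48.2% of all tested genes. *Igf2r*, a receptor that carries hydrolases to the lysosome, gave 135, 140.2, 149 and 142 CPM in WT and 61.7, 79.7, 73 and 75.7 CPM in the DKO (-0.97 ± 0.08). *Mcoln1*, a lysosomal calcium channel, fell from 38.4, 38.7, 39.4 and 39 to 29.4, 32.1, 26.5 and 28.7 CPM (-0.41 ± 0.06). *Sort1*, a sorting receptor (-2.29), and *Tpcn1*, a cation channel (-1.1), fell too. *Gpnmb* rose from 0.767 ± 0.248 to 2.51 ± 0.815 CPM, *Cd68* from 1.9 ± 0.295 to 4.66 ± 0.884 CPM, and *Lamp2* by 1.16, while *Lamp1* was not called (-0.02).

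**Figure D4:**
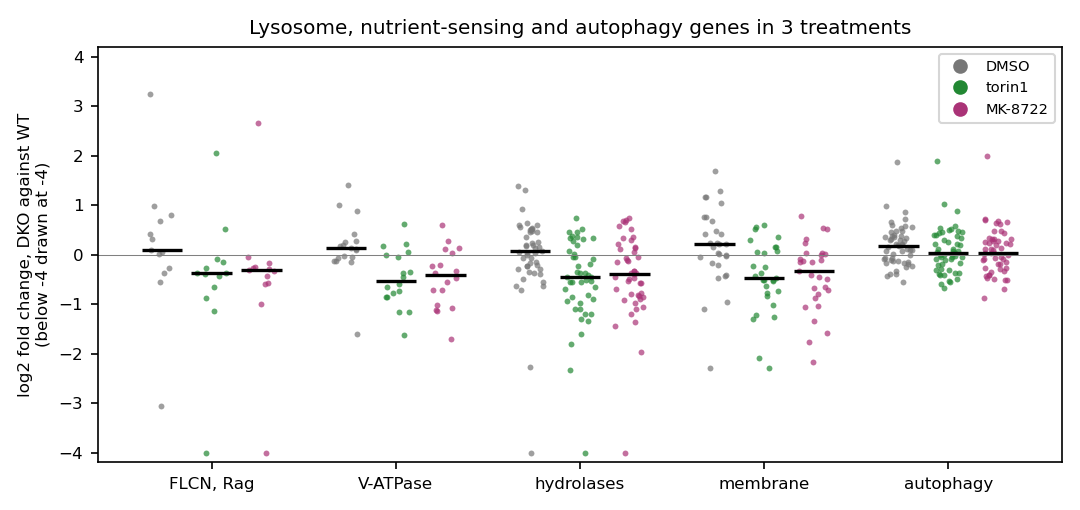
Log2 difference, DKO over WT, of each tested gene of the lysosome, FLCN and Rag, and autophagy lists under DMSO, torin1 and MK-8722, 1 point per gene with a bar at the median, and values below -4 drawn at -4. The points of the lysosome lists centre slightly above 0 under DMSO (median of 93 genes 0.13) and below 0 under torin1 (-0.46) and MK-8722 (-0.37).

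The genes that pass nutrient state to TFEB differed as well. The Rag GTPases recruit MTORC1 and TFEB to the lysosome, and FLCN with FNIP1 or FNIP2 sets the nucleotide on RRAGC and RRAGD. *Rragd*, which TFEB and TFE3 are known to induce, gave 1.78, 1.51, 1.23 and 1.06 CPM in WT and 0.103, 0.128, 0.154 and 0.281 CPM in the DKO (-3.06 ± 0.35). *Rragb* moved the other way, from 1.41, 1.36, 1.19 and 1.4 to 11.3, 15, 13.1 and 12.1 CPM (3.25 ± 0.13). *Rragb* is X-linked, and the median difference of that chromosome was 0.51. How far the chromosome sets its level was not tested. *Fnip1* (0.98), *Fnip2* (0.80), *Rragc* (0.67) and *Flcn* (0.41) rose, and *Slc38a9*, an arginine sensor (-0.55), *Rraga* (-0.38) and *Lamtor2* (-0.27) fell. Of 13 genes 6 were higher and 4 lower, 76.9% called against 48.2% of all tested genes. Of 52 autophagy genes 22 (42.3%) were higher and 5 (9.62%) lower, against 23.5% and 24.6% of all tested genes. *Sqstm1*, the cargo receptor p62, gave 331, 306, 273 and 276 CPM in WT and 522, 739, 531 and 541 CPM in the DKO (0.98 ± 0.11). *Rb1cc1*, the FIP200 scaffold of the ULK1 complex, rose from 56.7, 62.6, 55.3 and 66.1 to 247, 215, 213 and 206 CPM (1.87 ± 0.06). *Ulk1* (0.40), *Map1lc3b* (0.36) and *Atg9a* (0.46) rose by less than 1.5-fold, *Atg2a*, a lipid transfer protein, fell by 0.54, and *Becn1* was not called (0.07). *Atg10* was 1.4 ± 0.233 and 1.05 ± 0.19 CPM, a call (-0.43) that 12 alternatives lost. With the median of each gene's neighbours taken away, 9 of the 52 autophagy genes were higher and 2 lower. Of all 15401 tested genes 2409 were then higher and 3227 lower, so the share of all genes fell with this step too. The same step left the hydrolases at 12 and 7, the membrane proteins at 13 and 5 and the ATPase subunits at 6 and 1.

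MiT/TFE factors bind an E-box whose preferred form is TCACGTGA. The promoter windows used here are from RefSeq (GRCm38.p6), 250 bases before to 50 after a gene's start. The motif reads the same on both strands, and it holds within it the core CACGTG. Of all 32851 promoters tabulated, 0.974% held TCACGTGA and 7.15% CACGTG. An entry was found for 126 of the 158 tested genes of the lysosome, FLCN and autophagy lists. Of these 126 genes 14 held TCACGTGA in at least 1 entry. That count is per gene and the shares of all promoters are per entry, so they are not directly comparable. Among the 14, *Igf2r* and *Mcoln1* were lower in the DKO under DMSO, *Cln3*, *Gla*, *Ctsd*, *Gnptg*, *Nrbf2* and *Atg3* were higher, and *Atp6v1a*, *Atp6v0d1*, *Clcn7*, *Ctsa*, *Atp6v0e* and *Pip4p1* were not called. Their median difference was 0.21 under DMSO, -0.51 under torin1 and -0.44 under MK-8722. The pair that fell and the pair with the largest rises are shown, 100 bases each on the strand of the gene, with TCACGTGA in capitals. The windows lie at chr17:12769702-12769801 on the minus strand (*Igf2r*), chr8:3500427-3500526 on the plus strand (*Mcoln1*), chr7:126583305-126583404 on the minus strand (*Cln3*) and chrX:134601156-134601255 on the minus strand (*Gla*).
Igf2r: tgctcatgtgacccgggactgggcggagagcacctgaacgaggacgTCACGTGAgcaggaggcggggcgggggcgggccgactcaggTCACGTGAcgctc
Mcoln1: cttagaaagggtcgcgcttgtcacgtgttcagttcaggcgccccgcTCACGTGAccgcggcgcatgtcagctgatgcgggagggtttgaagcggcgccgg
Cln3: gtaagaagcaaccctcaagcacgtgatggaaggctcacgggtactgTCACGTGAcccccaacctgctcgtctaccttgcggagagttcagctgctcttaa
Gla: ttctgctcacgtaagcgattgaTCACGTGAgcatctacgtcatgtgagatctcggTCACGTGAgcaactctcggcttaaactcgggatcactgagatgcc
The first motif base lay 49 bases before the start of *Igf2r*, which held 2 copies, 46 before *Mcoln1*, 122 before *Cln3* and 228 before *Gla*, which held 2 copies. These windows were picked for the largest falls and rises among called genes with the motif, so both directions follow from the choice. *Igf2r* stood at -0.97 under DMSO, -1.30 under torin1 and -1.59 under MK-8722. *Cln3*, a lysosomal membrane protein, went from 2.03 ± 0.35 to 4.17 ± 0.448 CPM under DMSO (1.05 ± 0.14), with 0.61 under torin1 and 0.24 under MK-8722. A match is a description of the sequence and shows no binding.

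Matrix genes went both ways, within single families too. Of 27 tested collagens 13 were lower and 9 higher, and of 40 other matrix proteins 21 were lower and 12 higher. The shares called were 81.5% and 82.5%, against 48.2% of all tested genes. The basement membrane collagens *Col4a1* and *Col4a2* rose by 1.8 and from 123, 145, 149 and 136 to 614, 568, 630.2 and 608 CPM (2.13 ± 0.07), while *Col4a5*, another chain of the same family, fell by 1.41. *Col5a3* gave 187, 253, 218 and 233 CPM in WT and 6.96, 7.34, 5.41 and 5.57 CPM in the DKO (-5.14 ± 0.18), whereas *Col5a1* rose by 0.60. Both type VI chains *Col6a1* (-0.92) and *Col6a2* (-0.80) and the type I chain *Col1a2* (-0.77) fell, and *Col9a3* rose by 1.85 from a low level. *Vcan*, the proteoglycan versican, fell from 76.9 ± 8.07 to 1.63 ± 0.46 CPM (-5.57 ± 0.15). *Lama2*, a laminin chain, went from 12.7 ± 3.57 to 0.0723 ± 0.0733 CPM, and *Mfap2*, of elastic microfibrils, from 3.59 ± 0.82 CPM to no count. *Tnc*, tenascin C (-1.71), and *Hspg2*, perlecan (-0.92), fell, and *Bgn*, biglycan (1.18), *Fbln2* (1.17) and *Ltbp2* (2.01) rose. These counts were 13 and 9, and 20 and 12, with the group medians taken away.

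The proteases that remodel the matrix split, with 11 of 29 higher and 10 lower, 72.4% called against 48.2% of all tested genes. Beside *Mmp13* and *Mmp10*, *Mmp3*, stromelysin, rose from 2.05 ± 0.21 to 23.1 ± 8.39 CPM. *Mmp16*, a membrane-bound protease, averaged 16 ± 3.31 CPM in WT with no DKO count, at least 137-fold lower, and *Adamts12* likewise 1.65 ± 0.293 CPM, at least 14.1-fold. *Mmp2*, gelatinase A, fell by 1.58. Smooth muscle genes that fibroblasts switch on under tension rose in part, with 6 of 14 higher and 3 lower. The share called was 64.3% against 48.2% of all tested genes. *Acta2*, smooth muscle actin, gave 173, 321, 136 and 208 CPM in WT and 859, 823, 868 and 884 CPM in the DKO (2.03 ± 0.24), and *Tagln* rose by 1.35. *Cnn1*, calponin, went from 6.36 ± 0.611 to 0.11 ± 0.0872 CPM, and *Myh11* was near 0 in both (0.18 ± 0.0243 and 0.142 ± 0.0484 CPM).

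Signalling genes changed among ligands, receptors and antagonists alike. Of 33 tested TGF-beta and BMP genes 15 were higher and 9 lower, 72.7% called against 48.2% of all tested genes. Among the ligands *Bmp2* (4.0), *Bmp4* (1.93), *Inhba*, activin A (1.63), and *Tgfb1* (0.78) rose and *Tgfb2* fell by 0.86. Among the receptors *Bmpr1b* fell from 0.694 ± 0.132 to 0.0288 ± 0.0576 CPM, and *Tgfbr2* was not called (-0.02). The antagonist *Grem1* rose as above, and *Nog*, noggin (-1.39), and *Fst*, follistatin (-1.48), fell. Among the targets *Id1* rose by 0.41 and *Id2* (-1.06), *Id3* (-0.36) and *Id4* (-1.62) fell. Of 32 Wnt and hedgehog genes 11 were higher and 14 lower, 78.1% called against 48.2% of all tested genes. *Wnt5a* and the secreted *Dkk3* averaged 0.793 ± 0.28 and 0.722 ± 0.363 CPM in WT and had no DKO count, *Wnt10b* fell from 25.1 ± 2.97 to 0.294 ± 0.0604 CPM, and *Wnt5b* (2.38) and *Dkk2*, a Wnt antagonist (3.83 ± 0.16), rose. *Gli2*, a hedgehog effector, went from 9.17 ± 0.451 to 0.0556 ± 0.0445 CPM, while *Gli1* (-0.31) and *Axin2* (0.04), which report pathway activity, were not called.

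Interferon-stimulated genes, which cells switch on against viruses and foreign nucleic acid, were higher in every DKO library than in 3 of the 4 WT libraries. The mean over 43 genes on the log2 CPM scale was 2.47, 2.25 and 3.41 in WT at passages 7, 8 and 9 and 6.16 at passage 11. In the DKO it was 6.21, 6.45, 6.09 and 6.51 at passages 8, 9, 10 and 11. The WT culture at passage 11 was thus within the DKO range. The same order held in the treated WT cultures, with 2.68, 2.46, 3.45 and 6.44 under MK-8722 and 3.13, 3.18, 4.35 and 6.65 under torin1 at passages 7, 8, 9 and 11. *Rsad2*, viperin, gave 0.707, 12.3, 0.56 and 1.33 CPM in WT replicates 1 to 4 and 46.8, 29.96, 29.2 and 43.8 CPM in the DKO (3.28 ± 0.90), and *Oasl1* 3.26, 29.4, 3.4 and 4.87 and 117, 85.9, 80.1 and 107 CPM (3.24 ± 0.77). With all 8 libraries 14 of the 43 were called higher and 0 lower, 32.6% against the 48.2% of all genes, with a median of 1.73. Without WT replicate 2, 41 were called and the median was 3.71, and without the passage 11 cultures of both genotypes 41 and 3.70. Without any other WT library 7 or 8 were called. *Isg15* (1.75) and *Irf7* (2.13) were not among the 14. Without WT replicate 2 the differences were 5.42 for *Rsad2*, 4.67 for *Oasl1*, 3.71 for *Isg15* and 4.64 for *Irf7*. The limma voom method called 40 and a fit with passage as a block, over passages 8, 9 and 11, 30.

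**Figure D5:**
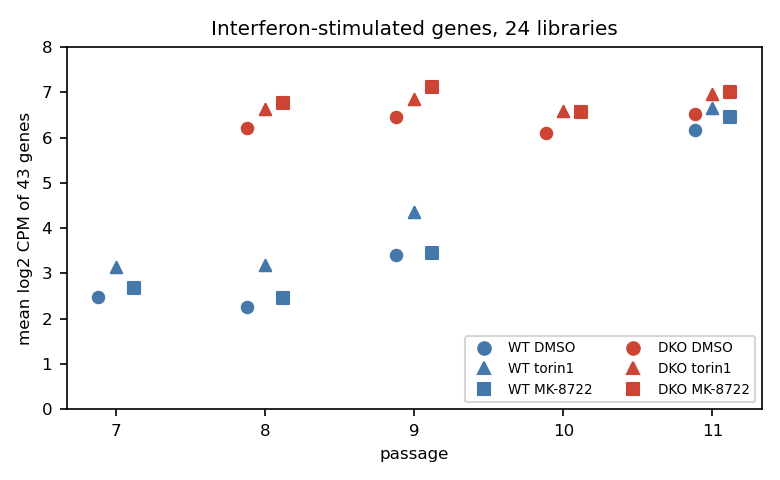
Mean log2 CPM of 43 interferon-stimulated genes in each of the 24 libraries against the passage of the culture, WT and DKO under the 3 treatments. The WT points rise from between 2.25 and 3.18 at passages 7 and 8 to between 6.16 and 6.65 at passage 11, and the DKO points lie between 6.09 and 7.12 at every passage.

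The genes of MHC class I antigen presentation, which interferon also raises, held 3 higher and 4 lower of 18, and 9 higher and 2 lower without WT replicate 2. With every library kept the share called was 38.9%, under the 48.2% of all tested genes. *H2-T23* gave 12.9, 50.05, 14.3 and 17.9 CPM in WT and 77.8, 64.1, 54.5 and 66.2 CPM in the DKO (1.46 ± 0.44), and *Tapbpl*, a peptide editor, rose by 0.90. *H2-Q6* gave 7.84, 58.8, 7.32 and 11.4 CPM and 2.43, 1.37, 1.34 and 1.36 CPM (-3.70 ± 0.89), and *H2-Q7* 17.2, 82.7, 17.1 and 21.6 CPM and 13.1, 10.8, 8.6 and 11.8 CPM (-1.65 ± 0.58). Without WT replicate 2 *H2-T23* stood at 2.13 and *H2-Q6* at -2.42. The *H2-Q7* call was then lost (-0.75, adjusted p = 0.225). The *H2-Q* genes are close copies, and the reads may be split among them. Of 18 chemokines and cytokines 9 were higher and 4 lower, 72.2% called against 48.2% of all tested genes. *Tslp*, which drives allergic responses (3.13 ± 0.15), *Ccl20* (2.66 ± 0.24) and *Cxcl12*, a homing factor (2.19), rose, *Ccl9* fell by 1.04, and *Ccl2* (-0.08) and *Ccl5* (-0.03) were not called. *Il15* was 1.04 ± 0.849 and 0.291 ± 0.121 CPM (-1.80 ± 0.58), a call lost without WT replicate 2 (-1.03), where *Ccl5* stood at 0.56 and was not called either.

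In the cell cycle, ribosome and respiration lists smaller shares were called than of all genes. Of 38 DNA replication genes 11 were lower and 3 higher, 36.8%, and of 35 mitotic genes 8 and 7, 42.9%, both under the 48.2% of all genes. *Fen1*, a flap nuclease (-0.51), fell, and *Mcm6*, of the replicative helicase (0.38), and *Pola1*, a polymerase subunit (0.30), rose. *Kif11* (-0.52) and *Espl1*, separase (-0.38), fell and *Anln*, anillin (0.62), and *Plk1* (0.47) rose, while *Cdk1* was not called (0.03). With the group medians taken away 0 replication genes were higher and 7 lower, and 1 and 2 mitotic genes. The cytosolic ribosomal proteins had 9 of 77 higher and 12 lower, 27.3%, or 5 and 19 when scaled by library size alone. *Rpl10* (0.56) and *Rpl39* (0.40), both X-linked, were among the higher, and *Rpl38* (-0.54), *Rpl8* and *Rps6* (-0.40) among the lower. Less the group medians 0 were higher and 5 lower. Of 74 nuclear genes of oxidative phosphorylation 10 were higher and 20 lower (6 higher when scaled by library size alone), led by *Ndufa1* (0.61), *Uqcrc2* (0.53), *Atp5g2* (-0.85) and *Ndufa7* (-0.69), and less the group medians 0 and 6.

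Of the genes of sterol and fatty acid synthesis more were lower than higher, with 17 of 32 genes lower and 4 higher, 53.1% lower against 24.6% of all tested genes. *Scd2*, a fatty acid desaturase, fell and gave 585, 1011, 883 and 915 CPM in WT and 557, 240.3, 401 and 307 CPM in the DKO (-1.17 ± 0.27), and *Fasn* (-0.74) and *Srebf2*, the master regulator of the pathway (-0.76), fell too. *Ebp* (0.83) and *Sc5d* (0.50) rose. Less the group medians 13 were lower and 1 higher. In glycolysis 8 of 23 genes were lower and 1 higher, 39.1% called, under the 48.2% of all tested genes. *Ldhb* went from 14.5 ± 0.59 to 1.37 ± 0.189 CPM (-3.41 ± 0.12) and *Slc16a3*, a lactate exporter, from 2.55 ± 0.293 to 0.184 ± 0.0597 CPM, while *Ldha* rose by 0.30, a call that 4 alternatives lost, and *Gapdh* was not called (-0.09). Among the antioxidant genes under NRF2 8 of 26 were higher and 6 lower, 53.8% called, near the 48.2% of all tested genes. *Gstm2* (-3.14 ± 0.12) and *Gstm1* (-1.43), glutathione transferases, and *Nqo1* (-1.06) fell, and *Hmox1*, heme oxygenase (0.84), and *Gsta1* (2.4) rose.

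Of 33 genes of the p53 pathway and inhibitors of cyclin-dependent kinases 13 were lower and 9 higher, 66.7% called against 48.2% of all tested genes. *Cdkn2a*, the Ink4a and Arf locus, fell from 161, 209.8, 180.0 and 181 to 104, 91.3, 91.6 and 90.1 CPM (-0.96 ± 0.08), and *Cdkn1a*, p21, by 0.54. *Eda2r*, a death receptor, fell from 3.2 ± 0.464 to 0.164 ± 0.108 CPM and *Ddit4l* from 0.906 ± 0.226 to 0.107 ± 0.124 CPM. *Pmaip1*, the death protein NOXA, rose from 3.28 ± 0.128 to 20.9 ± 2.98 CPM (2.67 ± 0.12) and *Ccnd2*, cyclin D2, from 154 ± 4.97 to 364 ± 18.1 CPM. *Trp53* (-0.05) and *Mdm2* (0.00) were not called. Of 24 genes of the ATF4 stress response 6 were higher and 2 lower, 33.3% called, under the 48.2% of all tested genes. *Vldlr*, a lipoprotein receptor (1.05 ± 0.28), and *Aldh1l2*, of mitochondrial folate metabolism (0.92), rose, the MTORC1 brakes *Ddit4* (-0.80) and *Sesn2* (-0.55) fell, and *Atf4* (-0.25) and *Asns* (-0.14) were not called.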

How the data were processed

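Poly(A)-selected, strand-specific libraries with molecular identifiers were sequenced as 52-bp pairs. Per the labels the authors used STAR and Salmon on GRCm38 (versions not given in the sources used here). They deposited a table of estimated counts per gene (Ensembl identifiers, 55487 genes) and, per library, estimated counts, effective lengths and TPM per transcript. TPM, scaled per transcript by the authors, gave the levels of *Tfe3* transcripts, and the effective lengths an alternative offset. Positions are from a GRCm38 annotation that held 55141 of the identifiers.

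Counts were rounded and fitted in edgeR 4.0.16 (R 4.3.3) with TMM scaling, filterByExpr with a minimum count of 10, and 6 group means over all 24 libraries (18 residual degrees of freedom). DKO was compared with WT within each treatment by quasi-likelihood test, with Benjamini-Hochberg adjustment over 15401 genes, and interactions were tested likewise. A simulated table with known changes was used to check the fit. limma 3.58.1 and DESeq2 1.42.0 gave alternatives. Standard errors are the log2 difference over the root of F. A fold against no count uses a floor of 3 counts per library. Genes were ordered by position, and those of at least 3 on the mean log2 CPM scale cut into groups of about 40. Groups, steps, the neighbour-median, passage 11 and passage-block interaction alternatives were chosen after seeing the data.

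The comparison, the 36 gene lists and the tests were chosen with earlier results of these data known. Genes named were the MiT/TFE factors, the 10 largest rises and falls among called protein-coding genes without overlap between genotypes of at least 2 on the mean log2 CPM scale, the 5 largest each way in CPM, the 2 largest called rises and falls of each list (every tested member of lists of up to 10), the sex-linked genes, and the ends and largest called member of each run. Other genes of the lists were named after their values were seen, for their roles. Some genes that the rule or a list chose are not reported here. Floors cover counting error only, and SDs and standard errors include the spread between cultures. Replicates are cultures of 1 line.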

Additional observations from a re-analysis of the deposited data

Results flagged for a closer look

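In 45 of 475 groups of 4 DMSO libraries, over 253 genes named above, 1 library lay far from the other 3 by Dixon's gap test, where chance alone gives about 1 in 20. In 21 of them it was WT replicate 2, the culture at passage 11. Interferon-inducible genes were high there, namely *Irf7* at 218.7 CPM, *Isg15* at 238 CPM, *Oasl1* at 29.4 CPM, *Rsad2* at 12.3 CPM, *Gvin1* at 19.8 CPM, *Gm8995* at 3.64 CPM, *Tgtp1* at 10.9 CPM and *Phf11d* at 7.05 CPM. So were genes of antigen presentation and 1 chemokine gene, namely *H2-Q6* at 58.8 CPM, *H2-Q7* at 82.7 CPM, *H2-T23* at 50.05 CPM, *Tapbpl* at 15.5 CPM and *Ccl5* at 54.9 CPM. Matrix and signalling genes followed, with *Thbs1* at 697 CPM, *Tnc* at 284 CPM, *Bgn* at 1052 CPM, *Bmp4* at 25.4 CPM and *Dkk3* at 1.26 CPM, as did the vacuolar ATPase subunit gene *Atp6ap1* at 152 CPM. The library was low for *Atp6v0e2* at 14.1 CPM and *Postn* at 0.0903 CPM.

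Elsewhere the DKO culture at passage 8, replicate 2, was high for *Ctsl* at 299.7 CPM, *Eif4g3* at 0.811 CPM, *Lamp2* at 266 CPM, *Sqstm1* at 739 CPM and *Vldlr* at 52.1 CPM, and low for *Cd14* at 5.76 CPM, *Krt19* at 45.1 CPM and *Manba* at 6.57 CPM. The other 3 DKO libraries also lay above every WT library for *Sqstm1* and *Vldlr*. The DKO culture at passage 11, replicate 1, was high for *Ank3* at 2.81 CPM, *Cdkn2a* at 104 CPM, *H2-Q6* at 2.43 CPM, *Hoxa13* at 17.4 CPM, *Lhx9* at 44 CPM and *Nes* at 283 CPM, and low for *Pabpc1* at 2009 CPM. DKO replicate 4 was high for *Cd68* at 5.98 CPM and *Isyna1* at 72.7 CPM and low for *Tnnt2* at 24.9 CPM, and DKO replicate 3 low for *Comp* at 0.0768 CPM. WT replicate 1 was high for *Alpl* at 0.738 CPM and low for *Krt19* at 24.8 CPM and *Slc38a4* at 159 CPM. WT replicate 3 was high for *Ndufa1* at 32.4 CPM and WT replicate 4 for *Fnip1* at 24.7 CPM.

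The DKO difference changed with torin1 for 63 of the 253 named genes and with MK-8722 for 39 (interaction term of edgeR's quasi-likelihood test, adjusted p under 0.05). Of all 15401 tested genes it changed for 2321 and 1051. With the passage of each line as a block the numbers for the named genes were 103 and 74, and the 63 and 39 were among them. Each value here is the log2 difference under the drug less that under DMSO. Under torin1 the genes of the lysosome, the FLCN complex and autophagy moved towards lower values in the DKO: *Gpnmb* (-3.98), *Flcn* (-1.56), *Fnip1* (-1.41), *Atp6ap2* (-1.23), *Rragb* (-1.20), *Idua* (-1.06), *Cd68* (-1.01), *Gaa* (-0.96), *Sqstm1* (-0.85), *Mcoln1* (-0.85), *Atp6v1h* (-0.82), *Rragc* (-0.76), *Lamp1* (-0.71), *Atp6v1a* (-0.71), *Map1lc3b* (-0.65), *Lamp2* (-0.61), *Ctsd* (-0.57), *Ctsb* (-0.49), *Gla* (-0.47), *Atp6ap1* (-0.38), *Igf2r* (-0.33) and *Ctsl* (-0.23). Lower under torin1 than under DMSO were also *B4galnt1* (-0.59), *Bmp2* (-1.14), *Ddit4* (-0.58), *Gata4* (-0.55), *Hoxa10* (-0.29), *Hoxa11* (-0.54), *Igf2bp3* (-1.02), *Lmx1b* (-1.19), *Ndufa1* (-0.23) and *Sesn2* (-0.67). Matrix, signalling and surface genes moved upwards: *Slco2a1* (1.74), *Gli2* (1.61), *Col5a3* (1.29), *Cd34* (1.26), *Fst* (1.18), *Wnt10b* (1.02), *Nog* (0.97), *Tnc* (0.96), *Vcan* (0.95), *Tslp* (0.95), *Mmp10* (0.82), *Inhba* (0.77), *Fn1* (0.55), *Id3* (0.50), *Tgfbr2* (0.48), *Nid1* (0.47), *Flnc* (0.45) and *Hspg2* (0.36). Higher too were *Ank3* (1.35), *Atp5g2* (0.23), *Cd14* (0.49), *Cdk1* (0.17), *Espl1* (0.23), *Hoxd9* (0.53), *Isyna1* (0.35), *Mitf* (0.61), *Nes* (0.66), *Peg10* (1.31), *Pvr* (0.54), *Tfe3* (0.16) and *Tnnt2* (0.63).

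Under MK-8722 the same kinds of gene moved down, with *Gpnmb* (-3.47), *Cd68* (-1.70), *Flcn* (-1.41), *Fnip1* (-1.27), *Atp6ap2* (-1.12), *Rragc* (-0.98), *Mcoln1* (-0.92), *Fnip2* (-0.84), *Cln3* (-0.80), *Gla* (-0.77), *Atp6v1h* (-0.76), *Gaa* (-0.72), *Idua* (-0.68), *Lamp1* (-0.66), *Map1lc3b* (-0.66), *Sqstm1* (-0.65), *Atp6v1a* (-0.63), *Igf2r* (-0.62), *Lamp2* (-0.61), *Ctsb* (-0.60), *Ctsd* (-0.57), *Ctsl* (-0.56) and *Atp6ap1* (-0.42). Down as well were *Cxcl12* (-1.0), *Hmox1* (-0.59) and *Gata4* (-0.49), and *Kdr* (-4.75), which was near 0 in every group. Up were *Peg10* (0.92), *Hoxa13* (0.68), *Plk1* (0.43), *Hoxd13* (0.41), *Kif11* (0.39), *Sall1* (0.37), *Flnc* (0.34), *Ulk1* (0.29), *Id3* (0.26), *Cdk1* (0.23) and *Tfe3* (0.19), and *Mest* (4.15), which had no DKO count under DMSO, so its size depends on the prior count. The DMSO libraries enter every one of these interaction terms.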

How the results depend on the processing

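The counts of 3621 higher and 3796 lower genes under DMSO stayed within 1.5 times under each alternative but 1. The higher genes ran from 2688 with edgeR's test against a fold of 1.2 to 4809 with no fold limit, and the lower from 2917, with at least 10 counts in every library, to 4918. With each gene's neighbour median taken away, an alternative chosen after seeing the data, 2409 were higher and 3227 lower. The DESeq2 Wald test gave 3469 and 3820, and limma voom 3690 and 3780. Leaving out 1 library at a time gave 3518 to 3669 higher and 3676 to 3736 lower, and without the passage 11 cultures of both genotypes, chosen after seeing the data, 3654 and 3709. Under torin1 and MK-8722 each alternative stayed within 1.5 times. Scaling by library size alone moved the median of all genes by -0.07 and made it 2943 higher and 4479 lower under DMSO. The median of the hydrolase list was then -0.0046 in place of 0.07, a change of sign. Requiring at least 10 counts in every library drops genes absent from 1 line, so lower genes went from 25 to 10 of the *Hox* list, 16 to 8 of the imprinted, 21 to 11 of the positional factor, 14 to 7 of the Wnt and hedgehog, 10 to 6 of the protease, 4 to 1 of the cartilage and bone and 3 to 0 of the epithelial list, and the medians of the Wnt (-0.12 to 0.14), cartilage (-1.05 to 0.37), epithelial (-0.56 to 1.01) and adipocyte (0.43 to -0.53) lists changed sign. With the passage of each line as a block, the genes whose difference changed with torin1 went from 2321 to 4088 and with MK-8722 from 1051 to 2302. No called gene named by the rule changed direction. The cause of these changes was not tested.

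Same-numbered WT and DKO libraries deviated together with correlations of -0.113, -0.0778, 0.0438 and -0.0571, so the replicate numbers did not pair the samples. With the replicate number as a block 3490 genes were higher and 3603 lower under DMSO, 3736 and 4148 under torin1 and 3621 and 3707 under MK-8722, and 39 interferon-stimulated and 6 MHC class I genes were called higher in place of 14 and 3, and 1 adipocyte and 2 sterol genes in place of 2 and 4. Not every library correlated best with its own number. Of 192 genes chosen by the rule *Atg10*, *Cebpa*, *Spp1* and *Il15* lost their call under the block. *Gvin1* and *Gm4070* got no adjusted p from DESeq2. The share of promoters with a motif among called and uncalled genes is not compared, since only 79.7% of the list members and 68.7% of the tested genes had a promoter entry, and the alternative planned for it was not run. A level under 3 counts in a library could not be told from 0 at this depth.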
